A study of Mus musculus with 6 samples.

Results

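The hippocampus of Prrc2a f/f mice that also carried Olig2-Cre was compared with the hippocampus of Prrc2a f/f mice without Cre, 1 RNA-seq library of each genotype. Both libraries were chosen by their genotype labels, and they were 2 of the 6 libraries of the series. They came from C57BL/6J mice at 4 weeks of age. The f/f mice are homozygous for a Prrc2a allele flanked by loxP sites, so both genotypes carried the floxed allele and differed by the Cre allele. According to the study, Cre is expressed from the Olig2 locus under its own promoter, which lowers the Olig2 dose. No library of Olig2-Cre mice with intact Prrc2a was used here, so the lower Olig2 dose and the deletion of Prrc2a cannot be told apart in this pair. Outside these libraries, the study included Prrc2a f/+ mice with Olig2-Cre as a control. Its RT-qPCR, at a later age, is reported to give lower Olig2 and myelin gene levels in f/f mice with Olig2-Cre. Controls of the other experiments, 1 f/f control of the Nestin-Cre experiment and 1 wild-type (WT) library of the Fto transgene experiment, served as a yardstick for the spread between control libraries. The labels do not say whether tissue from several mice was pooled.

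Prrc2a is a reader of N6-methyladenosine (m6A), a methyl mark on adenosines of mRNA that reader proteins recognize. Olig2 is a basic helix-loop-helix transcription factor that marks the oligodendroglial lineage from its progenitors on. Progenitors (OPCs) that carry the growth factor receptor Pdgfra become committed precursors and then oligodendrocytes, which wrap axons in myelin, a membrane rich in lipid and in a small set of abundant proteins.

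Genes of oligodendroglial transcription factors, precursors and myelin were more often lower than higher in the Olig2-Cre library. Genes of endothelium and the ventricle wall and genes induced by glucocorticoids were more often higher than lower. Counts were scaled to CPM, the reads of a gene per 1000000 counted reads. The Olig2-Cre library held 18616540 counts and its f/f control 29026329, and the other controls held 35482589 (f/f) and 25199896 (WT), so the deletion library was the shallowest. A gene was called higher or lower when it passed the read test of the study (MARS, a false discovery rate, FDR, under 0.001 and a fold of at least 1.2). Only the 2 libraries are compared by this test, not the genotypes. Of 17742 genes tested, 878 were called higher (4.95%) and 1226 lower (6.91%). Of the called genes 41.7% were thus higher, and with DESeq2 size factors in place of the counted total the split was 1124 higher and 1027 lower. As a second yardstick, a gene was outside the control range when its CPM in the Olig2-Cre library was at least 1.2-fold above the highest or below the lowest of the 3 controls. Of 19540 genes with enough counts in the 4 libraries, 1522 lay above the range (7.79%) and 2210 below (11.3%). Both yardsticks held in the same direction for 361 higher (2.03%) and 615 lower genes (3.47%), while 517 genes called higher and 611 called lower did not lie outside the range of the controls. By the same rule, 18.9% of genes in the Fto transgene (Fto Tg) library lay outside the same 3 controls, close to the 19.1% of the Olig2-Cre library.

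**Figure D1:**
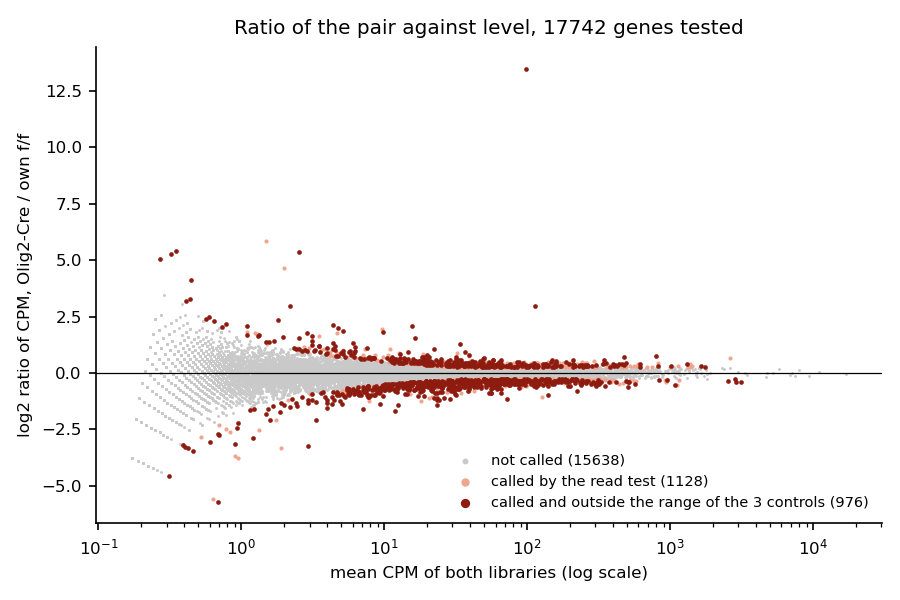
Log2 ratio of CPM, Olig2-Cre over its own f/f control (y axis), against the mean CPM of both libraries (x axis, log scale), 1 point per gene tested. Grey points were not called, pale points were called by the read test, and dark points were also outside the range of the 3 controls (361 higher, 615 lower).

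The 3 controls also allow a test in which their spread stands for the spread of the Olig2-Cre library. In edgeR, the quasi-likelihood test gave 0 of 17490 genes under an FDR of 0.05 (0%), and the lowest FDR was 0.108. At an unadjusted p under 0.05 there were 1481 genes (8.47%), 585 higher and 896 lower. DESeq2 on the same 4 libraries called 66 genes at this FDR, 0.418% of 15782 genes with an adjusted p (51 lower and 15 higher). The ratio of the pair also moved with transcript length. For 13216 annotated genes the pair held at least 100 counts, and in the 10% of these with the shortest exons the median log2 ratio was 0.20, with 19.97% called higher and 1.51% lower, and in the 10% with the longest exons it was -0.21, with 0.378% called higher and 34.4% lower. The median rose with GC content from -0.14 to 0.11. The calls of most gene lists are therefore also given after a fit that removes the part of the ratio predicted by length and GC content (the adjusted ratio). Among 17447 genes with both properties known, 539 were called higher (3.09%) and 649 lower (3.72%) after adjustment. The part of RNA quality or library preparation in this dependence was not tested.

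**Figure D2:**
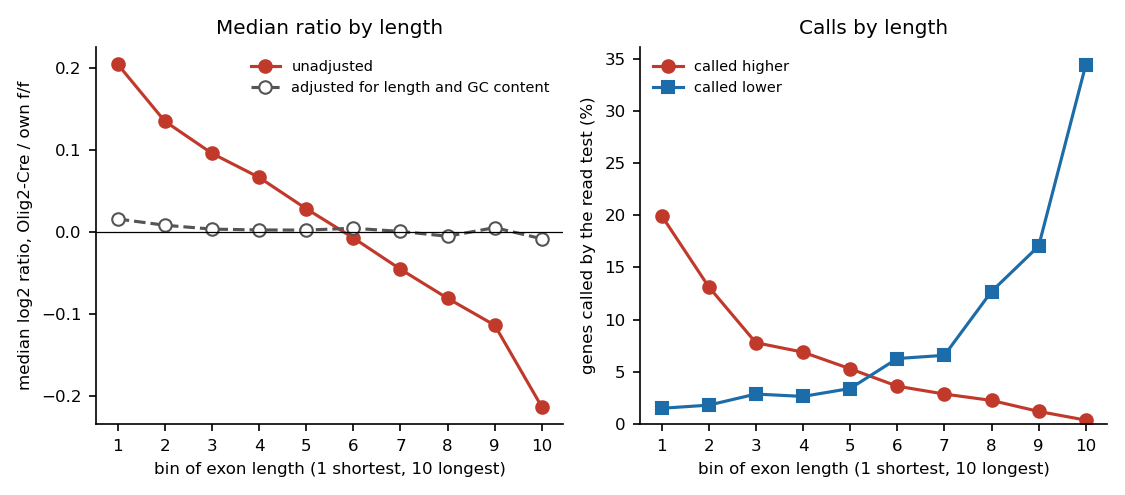
Median log2 ratio of Olig2-Cre over its f/f control (left) and percent of genes called by the read test (right) in 10 bins of exon length with equal numbers of genes (13216 annotated genes for which the pair held at least 100 counts), from the shortest (1) to the longest (10). Open symbols on the left are the adjusted ratios, which lie near 0 in every bin, whereas the unadjusted median falls from 0.20 to -0.21.

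Prrc2a itself, on chromosome 17, was read at 346 CPM (Wilson 95% interval 338 to 355) in the Olig2-Cre library and at 389 CPM (382 to 397) in its f/f control. Such intervals cover counting error only. The other controls held 434 CPM (f/f) and 351 CPM (WT), so the Olig2-Cre value lay just under the lowest control, and the log2 ratio of -0.17 ± 0.023 (counting SE) was under the 1.2-fold threshold. The counts thus do not check the deletion by themselves. They cover the whole tissue, in which cells outside the Olig2 lineage contribute Prrc2a reads too. In such bulk samples fewer cells of a type and less RNA per cell cannot be told apart, which applies to each cell type described here. The paralog Prrc2c was at 90.5 CPM, against 139, 178 and 137 CPM in the controls (here and below in the order own f/f, f/f of the Nestin-Cre experiment, WT). It was called lower with a log2 ratio of -0.62 ± 0.042 and lay below all controls, and it was also at 76.6 CPM in the Fto Tg library. Prrc2b stood at 347 CPM against 424, 559 and 401 CPM and was called lower (-0.29) inside the margin of the range. After adjustment Prrc2c remained called (-0.37) and Prrc2b did not (-0.20).

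Olig2, the gene that holds the Cre allele, was lower in the Olig2-Cre library than in any control. Its level was 23.7 CPM (21.6 to 26.1) in the Olig2-Cre library, against 36.9 CPM (34.7 to 39.1) in its control and 38.9 and 43.2 CPM in the other controls. The log2 ratio was -0.63 ± 0.082 and the adjusted ratio -0.79, and the 3 controls did not overlap the Olig2-Cre value. Olig1, the neighboring gene and a relative of Olig2, went the other way, with 186 CPM against 129, 138 and 146 CPM, a log2 ratio of 0.52 ± 0.034. It was above every control, and it was 261 CPM in the Fto Tg library, whose label names no Cre. After adjustment Olig1 was still called higher (0.34), but it no longer lay outside the control range by the 1.2-fold margin. Within 500 kb of Olig2, 24 other genes were tested, of which 1 was called higher (Olig1) and 2 lower (Urb1, -0.57, and Paxbp1, -0.53, named here after their values were seen), 12.5% against 11.9% of all genes tested.

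The coding sequence of Olig2 holds GGACT, which in RNA reads GGACU, the core in which m6A is most often found, at 2 places. They are shown because Olig2 is both the driver locus and, after Myrf, the lineage factor with the largest fall. Both lie in the 972 bases of coding sequence of transcript Olig2-201 (GENCODE M21, GRCm38, plus strand of chromosome 16), with the motif in capitals and read 5′ to 3′ as DNA. The first overlaps the start codon, at chr16:91226392-91226416, and the second lies at chr16:91226499-91226523.
Olig2 site 1: ctggggccatGGACTcggacgccag
Olig2 site 2: ttcacaggagGGACTgtgtcctcgt
The coding sequence of Olig1 (783 bases) holds 0 such sites. Of 21866 mouse coding sequences, 71.9% hold at least 1, and of 5278 within 20% of the length of Olig2, 64.9% do. A match of letters does not show that a base is methylated or bound, and methylation was not measured in these libraries. The motif of site 2 starts at coding position 110 and holds the A that the study names as an m6A site of Olig2. In other experiments the study reports an m6A peak and Prrc2a binding on Olig2 mRNA. It also reports that Prrc2a had no effect on a reporter in which this A was mutated.

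The oligodendroglial lineage was covered by 6 lists of transcription factors, progenitors, committed precursors, structural myelin proteins, other genes of mature oligodendrocytes and enzymes of myelin lipid synthesis. Genes were named by the rule given with the processing, and those named beyond it were chosen after their values were seen. Together they held 133 tested genes, of which 37 fell (27.8%), 5 rose (3.76%) and 91 were not called. The median log2 ratio was -0.20, against -0.0031 over all genes tested, and 102 of the 133 ratios were below 0. After adjustment 39 were called lower and 4 higher, with a median of -0.17. Of the 133, 32 lay below the range of the 3 controls and 6 above. The median was -0.23 against the f/f control of the Nestin-Cre experiment and -0.21 against WT, with the same Olig2-Cre library in each case.

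Among 18 lineage transcription factors, 6 fell, 2 rose and 10 were not called, with a median of -0.21 (-0.24 adjusted, with 3 lower and 2 higher). Myrf, which switches on myelin genes in differentiating oligodendrocytes, was at 44.1 CPM against 68.7, 70.3 and 68.5 CPM in the controls. Its log2 ratio was -0.64 ± 0.060, and it lay below all 3 controls, which were within 68.5 to 70.3 CPM. Sox10, which works with Myrf and Olig2 on myelin genes, was at 33.3 CPM against 40.2, 52.1 and 45.9 CPM and was called lower (-0.27, adjusted -0.41). Sox6, which holds progenitors in their immature state, was at 17.1 CPM against 21.9, 23.6 and 20.95 CPM (-0.36), but was not called after adjustment (-0.12). St18 was called lower (-0.41) and lay inside the control range, at 25.9 CPM with 25.1 CPM in the other f/f library. Zeb2, the member with the highest CPM, was called lower (-0.28) at 239 CPM against 289, 251 and 287 CPM, below every control but within the 1.2-fold margin. Besides Olig1, Id2 rose (0.40), an inhibitor of basic helix-loop-helix factors, at 109 CPM, but the controls alone spread from 53.5 to 99.3 CPM. Nkx2-2 was at 3.44 CPM against 3.96, 5.44 and 5.12 CPM and was not called (-0.20). Sox8 (-0.13), Sox5 (-0.030), Nkx6-2 (-0.15), Hes5 (-0.027), Tcf7l2 (-0.34), Zfp536 (-0.26), Id4 (-0.00013) and Zfp488 (0.094) were not called either.

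Progenitor genes moved less evenly. Of 19 tested, 5 fell, 0 rose, and the median was -0.15 but only -0.053 after adjustment, when 3 were called lower. Tnr, a tenascin of the extracellular matrix made by OPCs and some interneurons, was at 25.9 CPM against 41.6, 69.3 and 44.7 CPM (-0.68, adjusted -0.48), and at 27.9 CPM in the Fto Tg library. Pcdh15, a protocadherin, was at 7.52 CPM against 11.8, 11.2 and 14.1 CPM (-0.65, adjusted -0.37 and no longer called). Pdgfra, the receptor by which OPCs are recognized, was at 52.4 CPM, against 69.8, 75.2 and 90.0 CPM. Its log2 ratio was -0.41 ± 0.056, its adjusted ratio of -0.27 was still called, and all 3 controls were higher. Vcan (-0.46) and Xylt1 (-0.57) were the other members called lower. Cspg4, the proteoglycan NG2 of OPCs, was at 23.5 CPM against 27.2, 27.4 and 27.3 CPM (-0.21) and was not called, nor was Cspg5 (0.089), the member with the highest CPM. The committed precursors gave 3 lower and 0 higher of 17, with a median of -0.23 (-0.12 adjusted, with 2 lower), and 16 of the 17 ratios were below 0. Bcas1, a marker of cells that begin to myelinate, was at 104 CPM against 142, 143 and 141 CPM, a log2 ratio of -0.45 ± 0.040 below 3 controls of nearly equal level. Gpr17, a receptor that marks the committed stage, was at 67.4 CPM against 82.8, 106 and 78.6 CPM (-0.30). Both remained called after adjustment.

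**Figure D3:**
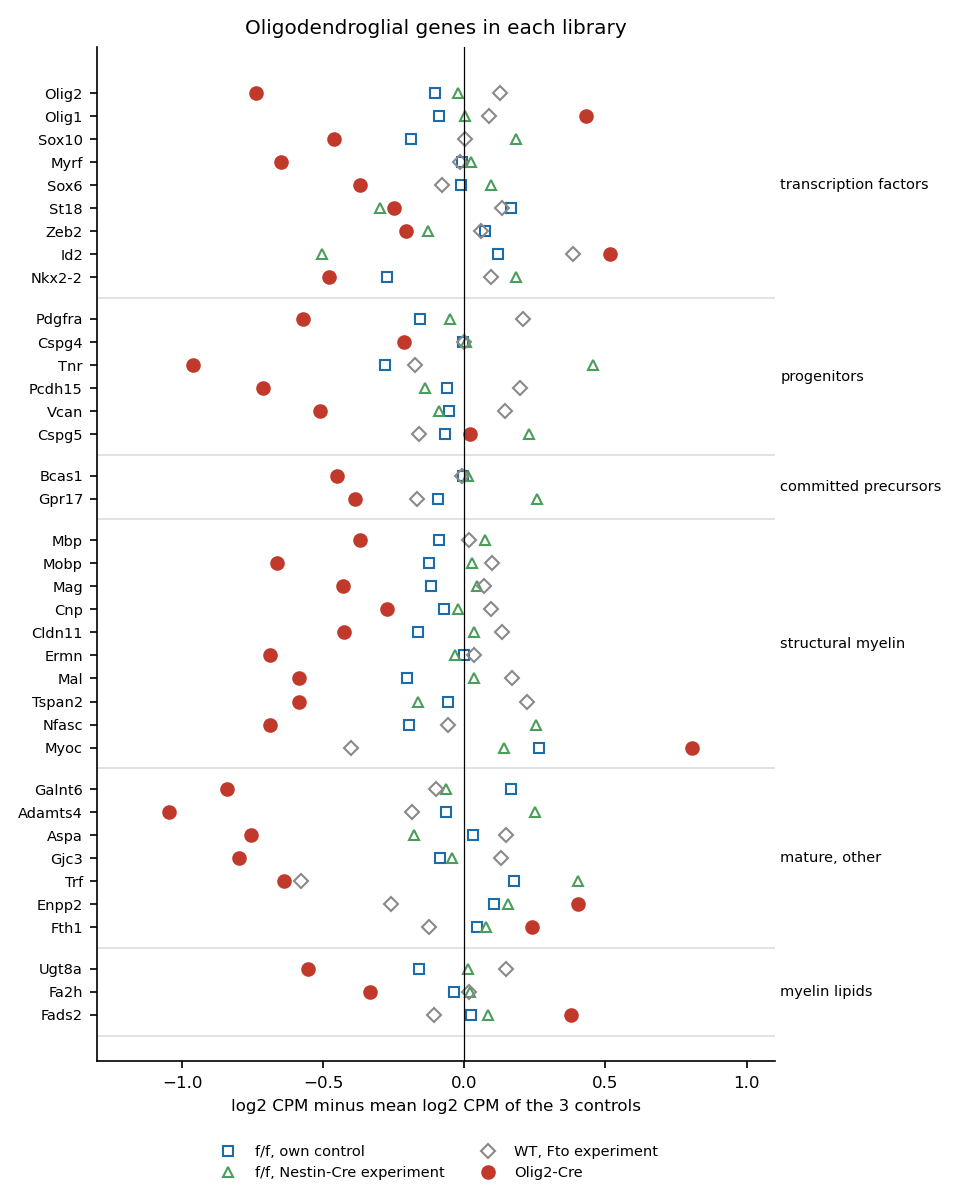
Log2 CPM of oligodendroglial genes in each library, relative to the mean of the 3 controls (x axis), grouped by list from transcription factors at the top to myelin lipid enzymes at the bottom. Filled circles are the Olig2-Cre library and open symbols the 3 controls. Myrf, Olig2, Bcas1 and Ermn lie left of all controls, and Olig1, Myoc, Enpp2 and Fads2 lie right of all controls.

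Structural proteins of myelin were mostly lower. Of 25 tested, 10 fell, 1 rose and 21 ratios were below 0, the median was -0.24 (-0.28 adjusted, with 13 lower and 1 higher), and 9 of the 10 lay below all controls by the 1.2-fold margin. Mbp, a cytoplasmic protein that compacts the myelin membrane, was at 2579 CPM against 3129.9, 3507 and 3366 CPM, with a log2 ratio of -0.28. Every control was higher, and the adjusted ratio (-0.21) was under the threshold. Mobp, a further compact myelin protein, was lower at 876 CPM against 1275, 1414 and 1487 CPM (-0.54). Ermn, a cytoskeletal protein of late oligodendrocytes, gave the largest fall of the list, 42.8 CPM against 68.9, 67.4 and 70.7 CPM (-0.69 ± 0.060). Mag, the adhesion protein at the inner face of myelin, was at 190.0 CPM against 236, 264 and 269 CPM (-0.31), and Mal (-0.38), Tspan2 (-0.53), Tppp (-0.40), Jam3 (-0.37) and Nfasc (-0.49) were also called lower. Cnp, an enzyme of non-compact myelin, was at 459 CPM against 527, 545 and 592 CPM (-0.20) and Cldn11, a tight-junction protein of the sheath, at 280.4 CPM against 336, 385 and 413 CPM (-0.26). Neither was called in the pair, and both were called lower after adjustment (-0.30 and -0.41). Myoc (myocilin), at 33.4 CPM against 22.9, 21.02 and 14.4 CPM (0.54), was the member that rose.

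Other genes of mature oligodendrocytes gave 11 lower and 1 higher of 33, with a median of -0.20 (-0.35 adjusted, with 15 lower and 1 higher). The largest falls were in enzymes. Galnt6, which starts O-linked sugar chains, was at 6.50 CPM against 13.1, 11.1 and 10.9 CPM (-1.002 ± 0.15). Adamts4, a protease made by mature oligodendrocytes, was at 21.4 CPM against 42.4, 52.6 and 38.9 CPM (-0.98 ± 0.083). Both lay below all 3 controls, and the Fto Tg library held 11.7 and 44.8 CPM. Aspa, which breaks down N-acetylaspartate, was at 13.4 CPM against 23.1, 19.9 and 25.0 CPM (-0.79), and Gjc3, a connexin, at 49.4 CPM against 80.9, 83.4 and 94.1 CPM (-0.71). Trf (transferrin) was called lower (-0.81) at 3.76 CPM, but WT held 3.93 CPM, so the controls overlapped it. Enpp2 (autotaxin), which oligodendrocytes share with the choroid plexus, was the member that rose, 1249 CPM against 1016, 1051 and 789 CPM (0.30). Fth1, the ferritin heavy chain and the member with the highest CPM, was not called (0.20).

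Few lipid enzymes were called, at shares near those of all genes tested (4.95% higher, 6.91% lower). Of 21 tested for myelin lipids 2 fell and 1 rose (4.76% higher, median -0.038), with 0 higher and 3 lower after adjustment. Of 24 for cholesterol synthesis 1 fell and 1 rose (4.17% each way, median -0.082), the same counts as after adjustment. The 2 falls among myelin lipid genes (9.52%, against 6.91% of all genes tested) were in enzymes of myelin galactolipids. Ugt8a, which makes galactosylceramide, was at 76.3 CPM against 100.4, 113 and 124 CPM (-0.39), and Fa2h, which hydroxylates its fatty acids, at 46.2 CPM against 56.8, 59.2 and 59.0 CPM (-0.30). Fads2, a fatty acid desaturase, rose to 130.5 CPM from 102 CPM (0.35) and was not called after adjustment (0.24). Hmgcs1, the cholesterol enzyme with the highest CPM, was not called (-0.22), while Dhcr7 rose (0.28) and Hsd17b7 fell (-0.43).

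Of the list that the study uses for the oligodendroglial lineage, 475 genes were tested, of which 91 fell and 18 rose, with a median of -0.14. Its astrocyte list had 45 lower and 33 higher of 467 (median -0.00096) and its neuron list 40 lower and 31 higher of 467 (median -0.025). After adjustment the lineage list had 81 lower and 16 higher. How the study drew these lists up is not given in the sources used here, and since they served its own analysis of these libraries they are not independent evidence of a direction. The largest fall in the lineage list was in Omp, the olfactory marker protein, at 0.376 CPM against 2.27, 0.479 and 0.238 CPM, with only the own control high.

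Genes of the axon and of the node of Ranvier, where myelin leaves the axon bare, gave 8 lower and 0 higher of 24, with a median of -0.19, and -0.082 after adjustment, when 4 were called lower. Kcna2, the potassium channel beside the node, was at 33.6 CPM against 51.4, 66.9 and 42.7 CPM (-0.61). Kcnq3, a subunit of the M-current channel at the node, was at 14.0 CPM against 23.6, 28.4 and 20.8 CPM (-0.75 ± 0.10). Cntn2, which holds the channels beside the node in place, was at 104 CPM against 131, 148 and 126 CPM (-0.33). All 3 lay below every control and were called after adjustment, and the Fto Tg library was low as well in Kcna2 (27.7 CPM) and Kcnq3 (14.6 CPM). The neurofilament genes Nefm (-0.22), Nefh (-0.16) and Nefl (-0.023) were not called, nor was Map1b (-0.21), the member with the highest CPM. Potassium channels at large had 14 lower and 0 higher of 71 (median -0.12), and 10 of them lower after adjustment. The largest falls were at low levels, Kcnh5 at 0.859 CPM against 2.89, 1.94 and 2.98 CPM (-1.72 ± 0.39) and Kcng3 at 1.13 CPM against 3.24, 2.99 and 2.30 CPM (-1.50 ± 0.34).

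Each synaptic class had more members called lower than higher in the pair, as did all genes tested (6.91% lower, 4.95% higher). GABA and glycine receptors were near these shares (9.52% lower, 4.76% higher), and glutamate receptors had 12% lower and 8% higher. After adjustment not every class had more members lower than higher. Vesicle and release proteins had 8 lower and 2 higher of 34 (median -0.049), 4 and 0 after adjustment. Pclo, a giant scaffold of the release site, was at 156 CPM against 232, 228 and 235 CPM (-0.57, adjusted -0.30, with 143 CPM in the Fto Tg library), and Snap25, a SNARE of vesicle fusion, was not called (-0.17). Voltage-gated sodium and calcium channels had 6 lower and 1 higher of 36, and 2 higher and 3 lower after adjustment. Cacna1e, the pore of the R-type calcium channel, was at 164 CPM against 281, 311 and 294 CPM (-0.78, adjusted -0.52), and at 184 CPM in the Fto Tg library. Among GABA and glycine receptors 2 of 21 fell and 1 rose, and 1 was called in each direction after adjustment. Gabrb2, a beta subunit of GABA-A receptors, was at 45.9 CPM against 86.0, 119 and 97.3 CPM (-0.91), while Gabrb1, its relative, was at 83.9 CPM against 65.4, 39.4 and 60.8 CPM (0.36). These Gabrb subunits moved in opposite directions, both outside the control range and both called after adjustment, and Gabrb2 was at 43.6 CPM in the Fto Tg library too. Glutamate receptors had 3 lower and 2 higher of 25 (median -0.025), but 4 higher and 2 lower after adjustment (median 0.11), with Grin2a, a subunit of NMDA receptors, at 30.6 CPM against 53.8, 34.9 and 46.4 CPM (-0.82). Scaffolds and adhesion proteins had 7 lower and 1 higher of 32, and 5 higher and 6 lower after adjustment, among them Dlg2 (-0.59) lower and Lrrtm4 (0.42) higher, with Camk2a (-0.091) not called.

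Astrocyte genes of the hand-written lists were more often called higher than lower, unlike the larger astrocyte list of the study. Of 34 genes of resting astrocytes 6 rose and 1 fell (median 0.070, adjusted 0.044, with 3 higher and 0 lower), and of 37 genes of reactive astrocytes 4 rose and 0 fell (median 0.074, adjusted -0.010, with 4 higher and 0 lower). Gfap, the intermediate filament of astrocytes, was at 593 CPM against 359, 298 and 334 CPM. Its log2 ratio was 0.73 ± 0.020 and its adjusted ratio 0.65, and it was above every control. Agt, the precursor of angiotensin made by astrocytes, was at 49.9 CPM against 28.3, 27.9 and 29.7 CPM (0.82), and Slc25a18, a mitochondrial glutamate carrier, at 78.5 CPM against 53.4, 46.2 and 48.1 CPM (0.56). In Gfap, Agt and Slc25a18 the Fto Tg library was above every control too, at 500, 38.7 and 58.6 CPM. Slc1a2, the main glutamate transporter of astrocytes and the member with the highest CPM, was the one that fell, 2519 CPM against 3281, 3318 and 3164 CPM (-0.38), and it was not called after adjustment (-0.16). Aqp4, a water channel, was at 233 CPM against 218, 181 and 194 CPM (0.10) and Aldh1l1, a folate enzyme, at 41.1 CPM against 45.8, 47.4 and 46.2 CPM (-0.15), neither of them called. Lcn2, a secreted carrier of iron chelators and a marker of reactive astrocytes, was at 3.92 CPM against 0.482, 0.366 and 0.952 CPM, which is 73 counts against 14 in the pair (2.98 ± 0.41). Other reactive genes, such as Vim (0.32) and C4b (0.39), rose less, and Serpina3n (0.12) was not called.

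Microglial genes had 6 higher and 0 lower of 28 (median 0.13), but only 1 higher after adjustment (median 0.034). That one was Sparc, a matrix protein, at 398 CPM against 291, 305 and 291 CPM (0.45). Defining receptors of the resting state, P2ry12 (0.015), Tmem119 (0.0035) and Cx3cr1 (-0.15), were not called. Genes of activated microglia had 3 higher and 0 lower of 19, with Apoe at 1587 CPM against 1187, 1341 and 1205 CPM (0.42), and 1 higher after adjustment.

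Endothelial and ventricular genes stood higher. Of 32 genes of endothelium and the blood-brain barrier 8 rose and 1 fell, with a median of 0.25 (0.17 adjusted, 7 higher and 1 lower). Klf2, a transcription factor that endothelium makes under flow, was at 30.3 CPM against 14.4, 14.9 and 9.17 CPM (1.08 ± 0.093), and its relative Klf4 at 16.6 CPM against 9.34, 6.82 and 5.91 CPM (0.83 ± 0.12). Slc2a1, the glucose transporter of the barrier, was at 172 CPM against 122, 84.0 and 96.6 CPM (0.49). Each of them was above all 3 controls. Structural markers moved less, with Cldn5 (0.28), Cdh5 (0.26) and Flt1 (0.024) not called and Tjp1 lower (-0.42). Pericyte and smooth muscle genes were near the share of all genes tested, with 1 of 18 higher (5.56% against 4.95%). After adjustment 1 was called higher and 1 lower. The member that rose in the pair was Acta2, the actin of smooth muscle, at 13.6 CPM against 8.79, 7.81 and 6.63 CPM (0.63).

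Choroid plexus genes had 6 higher and 2 lower of 18 (median 0.27), and 6 higher and 0 lower after adjustment (median 0.25). Ttr, the thyroid hormone carrier that the choroid plexus secretes, was at 3206 CPM against 2014, 2710.3 and 1529 CPM (0.67), so the controls alone spread from 1529 to 2710.3 CPM. The median of the list was 0.20 against the other f/f library and 0.80 against WT. Ependymal genes, which build the motile cilia of the ventricle wall, had the highest median of the 48 hand-written lists, 0.73 (0.54 adjusted), with 4 of 13 higher and 0 lower, and 3 and 0 after adjustment. Cfap126 was at 6.34 CPM against 2.76, 2.90 and 2.82 CPM (1.199 ± 0.21) and Tmem212 at 4.35 CPM against 1.86, 1.24 and 2.38 CPM (1.22 ± 0.25), both cilium-associated. Foxj1, the master factor of motile cilia, was at 14.4 CPM against 11.5, 12.2 and 11.03 CPM (0.32) and was not called. How much ventricular tissue each dissection held was not tested, and Otx2 and Folr1, which mark the choroid plexus, were read at 15.5 and 26.0 CPM in the Olig2-Cre library and at 11.4 and 18.8 CPM in its control.

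**Figure D4:**
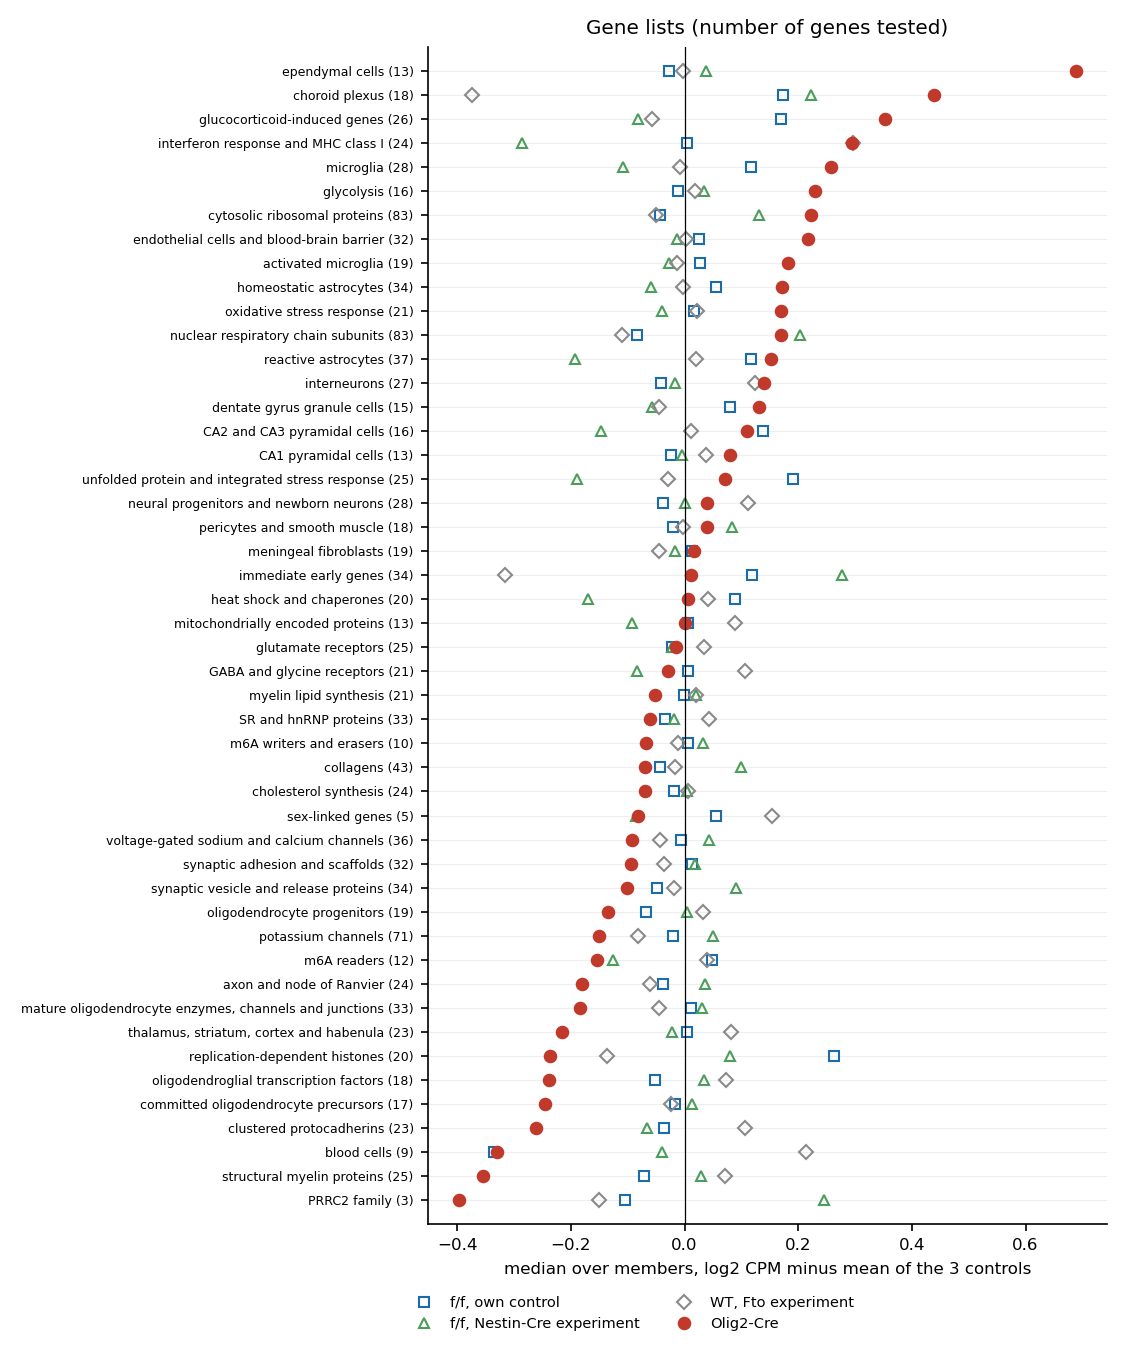
Median over the members of each gene list of the log2 CPM relative to the mean of the 3 controls (x axis), for the Olig2-Cre library (filled) and each control (open symbols). The oligodendroglial lists lie left of all controls, ependymal and glucocorticoid-induced genes lie right of them, and for immediate early genes and interferon genes the controls spread at least as widely as the Olig2-Cre library departs from them.

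Neuronal genes of the hippocampal fields were called in both directions, beside 4.95% higher and 6.91% lower over all genes tested. Dentate genes, with 6.67% higher, were near these shares. Shares higher and lower were 15.4% and 38.5% for CA1, 25% and 6.25% for CA2 and CA3 and 18.5% and 3.70% for interneurons. They were 4.35% and 21.7% for neighboring regions and 14.3% and 3.57% for progenitors and newborn neurons. Dentate granule cell genes had 1 higher and 0 lower of 15 (C1ql2, 0.62) and 3 higher after adjustment, with Prox1, the factor that defines granule cells, not called (-0.16). CA1 genes had 2 higher and 5 lower of 13, and 1 higher and 2 lower after adjustment, with Mpped1, the member with the highest CPM, not called (0.12). CA2 and CA3 genes had 4 higher and 1 lower of 16, and 3 higher and 1 lower after adjustment. Pcp4, a calmodulin-binding peptide of CA2, was at 19.4 CPM against 10.1, 11.6 and 6.55 CPM (0.94 ± 0.11). Interneuron genes had 5 higher and 1 lower of 27 (median 0.20, adjusted 0.20, with 4 higher and 0 lower). Calb2 (calretinin), a calcium-binding protein, was at 43.6 CPM against 32.8, 23.3 and 38.3 CPM (0.41). Genes of neighboring thalamus, striatum, cortex and habenula had 5 lower and 1 higher of 23 (median -0.20), and 1 higher and 4 lower after adjustment (median -0.13). Slc17a6, the vesicular glutamate transporter VGLUT2, which is far more abundant in thalamus than in hippocampus, was at 16.4 CPM against 35.9, 32.6 and 41.2 CPM (-1.13 ± 0.094), below every control. Prkcd, a kinase of thalamic neurons, went the other way at 39.2 CPM against 29.7, 21.1 and 33.8 CPM (0.40). Genes of progenitors and newborn neurons had 4 higher and 1 lower of 28, and 3 higher and 0 lower after adjustment, with Igfbpl1 at 7.68 CPM against 3.89, 5.38 and 5.44 CPM (0.98) and Sox11 lower (-0.74).

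Genes that respond within minutes to hours to stimulation differed in both directions. Of 34 immediate early genes 13 fell and 8 rose (median -0.18), with 7 higher and 14 lower after adjustment (median -0.29), but the 3 controls differed from each other as well. Their list medians relative to the control mean were 0.12, 0.28 and -0.32, against 0.012 in the Olig2-Cre library, and only 3 genes lay above and 2 below the control range. Npas4, a factor that neurons switch on with activity, was at 5.64 CPM against 18.2, 37.1 and 18.1 CPM (-1.68 ± 0.15), below every control. Arc, a regulator of glutamate receptors at active synapses, was at 81.7 CPM against 172, 243 and 75.7 CPM (-1.07), with WT lower still. Dusp1, a phosphatase of MAP kinases, rose to 48.5 CPM against 19.6, 36.3 and 20.1 CPM (1.31 ± 0.077). Maff, a small Maf factor, rose to 4.73 CPM against 1.52, 1.92 and 1.47 CPM (1.63), and Ccn1, a matrix protein of vessels, to 15.2 CPM against 3.93, 12.7 and 4.21 CPM (1.95), the last above every control but within the 1.2-fold margin.

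Glucocorticoid-induced genes had 10 higher and 1 lower of 26 (median 0.20, adjusted 0.18, 7 higher and 1 lower). The largest rises of the list were Lcn2 (2.98) and Dusp1 (1.31), which are also described with other classes above. Of the 26, 8 lay above all 3 controls by the margin and 0 below. The medians against the other f/f library and WT were 0.49 and 0.50. Tsc22d3 (GILZ), a mediator of glucocorticoid action, was at 148 CPM against 121, 79.9 and 97.3 CPM (0.29). Nfkbia, the inhibitor of NF-kappaB, was at 60.8 CPM against 38.8, 33.9 and 24.5 CPM (0.65 ± 0.061), and Cdkn1a, a cell cycle inhibitor, at 21.1 CPM against 14.6, 9.22 and 9.76 CPM (0.53). Fkbp5, a chaperone of the glucocorticoid receptor, was at 98.5 CPM against 89.6, 62.7 and 80.6 CPM (0.14) and Sgk1, a kinase, at 133 CPM against 124, 97.8 and 78.0 CPM (0.098). Both were highest in the Olig2-Cre library without being called. Zbtb16 was the member called lower (-0.39), inside the control range, and Mt1, the member with the highest CPM, was called higher (0.41) although WT was higher still at 625 CPM.

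**Figure D5:**
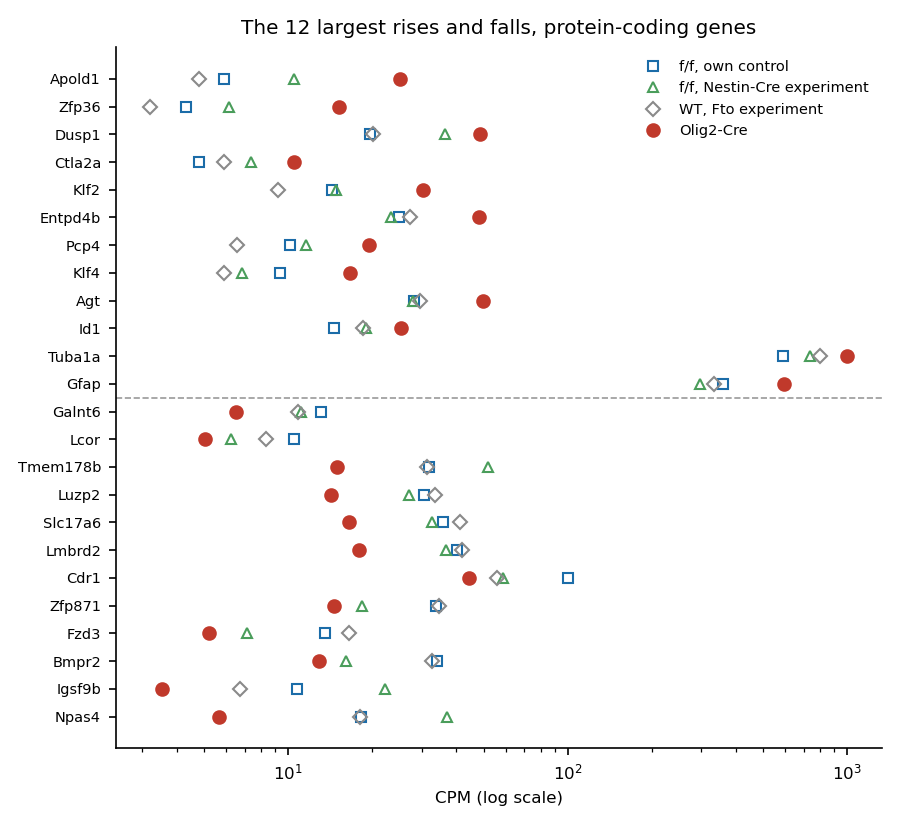
CPM (x axis, log scale) of the 12 largest rises (top) and the 12 largest falls (bottom) among protein-coding genes at 10 CPM or more in 1 library of the pair, ordered by the log2 ratio of the pair. Filled circles are the Olig2-Cre library and open symbols the 3 controls, and by the rule that chose the genes the filled circle lies outside all controls.

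At 10 CPM or more, the largest rises among protein-coding genes were led by early-response genes. Genes were ranked among 292 higher and 528 lower genes that met both yardsticks with at least 10 CPM in 1 library of the pair, so the ranking itself is a description. Apold1, an early-response gene of endothelium, was at 25.1 CPM against 5.89, 10.5 and 4.80 CPM (2.09 ± 0.13), and Zfp36, which speeds the decay of inflammatory mRNAs, at 15.3 CPM against 4.31, 6.14 and 3.21 CPM (1.82 ± 0.15). They were followed by Dusp1, Ctla2a (1.13), Klf2, Entpd4b (0.95), Pcp4, Klf4, Agt, Id1 (0.80), Tuba1a (0.76) and Gfap. Entpd4b has a close copy, Entpd4, and reads shared by both were not counted, so its level is uncertain. Tuba1a, a tubulin of growing neurons, was at 1001 CPM against 591, 735 and 801 CPM. The Fto Tg library held 1072 CPM of it. That library was above every control in all of the 12 rises except Apold1, Dusp1, Klf2 and Klf4, where it lay within their range. In Zfp36 it exceeded them only slightly (6.19 CPM against at most 6.14 CPM). The 12 largest falls began with Npas4 and Igsf9b, an adhesion protein of inhibitory synapses, at 3.55 CPM against 10.7, 22.2 and 6.71 CPM (-1.59 ± 0.19). Bmpr2, a receptor of bone morphogenetic proteins, was at 12.8 CPM against 34.2, 16.1 and 32.6 CPM (-1.41 ± 0.10), and Fzd3, a Wnt receptor of axon growth, at 5.21 CPM against 13.5, 7.13 and 16.5 CPM (-1.37 ± 0.16). In both, the f/f control of the Nestin-Cre experiment was close to the Olig2-Cre library and the other controls were high. Zfp871 (-1.21), Cdr1 (-1.17), Lmbrd2 (-1.17), Slc17a6, Luzp2 (-1.11), Tmem178b (-1.09), Lcor (-1.05) and Galnt6 completed the 12. In Zfp871 (14.6 against 18.3 CPM) and Lcor (5.05 against 6.26 CPM) the other f/f library was also close to the Olig2-Cre library. In Cdr1 the own control stood apart, with 44.5 CPM against 100, 58.8 and 56.0 CPM. Lmbrd2 was at 17.9 CPM against 40.2, 36.6 and 42.0 CPM and Luzp2 at 14.2 CPM against 30.6, 27.0 and 33.5 CPM, each with little spread among controls. The Fto Tg library lay below every control in all of the 12 falls except Galnt6 (11.7 CPM). Its label names neither Cre nor the floxed allele. That library held 9.37 CPM for Npas4, 5.22 CPM for Igsf9b, 12.9 CPM for Bmpr2, 5.02 CPM for Fzd3 and 16.3 CPM for Zfp871. It held 40.2 CPM for Cdr1, 18.8 CPM for Lmbrd2, 17.7 CPM for Luzp2, 15.2 CPM for Tmem178b and 4.07 CPM for Lcor. In Slc17a6 (27.7 CPM) it was nearer to the controls. Counting ignored strand, so reads of Cdr1 and of the transcripts on its opposite strand cannot be told apart.

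Among other biotypes, under the same rule and limit of 10 CPM, the largest rises were in a pair of short noncoding RNAs. Gm24447, annotated as a miscellaneous RNA of 338 bases on chromosome 15, had 3657 counts in the Olig2-Cre library (196 CPM), 0 in both f/f libraries and 32 in WT. Against 3 counts in its own control, the floor used here, that is at least 1901-fold higher. Rn7sk, the 7SK RNA that holds back transcription elongation, was at 202 CPM against 25.8, 39.4 and 16.9 CPM (2.96 ± 0.058). ENSMUSG00000094114, which has no entry in the annotation used, was at 24.4 CPM against 8.30, 4.45 and 6.35 CPM (1.56). These RNAs are short or lack an annotation, and how much of them is recovered depends on size selection and RNA selection, whose part was not tested. The largest noncoding falls were in A830036E02Rik (-1.41), Pisd-ps2 (-1.19) and Gm16185 (-1.05). The last and the first are antisense transcripts whose reads cannot be told from those of their partner genes, and Pisd-ps2 is a pseudogene that shares sequence with its parent.

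Short housekeeping transcripts rose in the pair, and fewer of them were called after adjustment for length and GC content. Of 83 cytosolic ribosomal protein genes 51 rose and 0 fell (median 0.29), and after adjustment 11 rose (median 0.16). Against the f/f control of the Nestin-Cre experiment the median was 0.066. Nuclear genes of the respiratory chain showed the same, with 44 higher and 1 lower of 83 (median 0.28), 8 and 0 after adjustment, and a median of -0.0014 against the other f/f library. Rplp1, a protein of the ribosomal stalk, was at 566 CPM against 418, 453 and 412 CPM (0.44), and Atp5b, a subunit of ATP synthase, at 1087 CPM against 894, 933 and 866 CPM (0.28). Glycolytic enzymes had 5 higher and 0 lower of 16 (median 0.23), 3 and 0 after adjustment, with Gapdh at 1487 CPM against 1122, 963 and 1153 CPM (0.41, adjusted 0.34). Proteins encoded by the mitochondrial genome had 2 lower of 13 (median -0.00011). One was mt-Nd5, a subunit of complex I, at 2719 CPM against 3575, 3709 and 3801 CPM (-0.39), and the Fto Tg library held 2612 CPM.

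Stress and immune classes differed in the direction of their calls. Interferon and MHC class I genes had 3 higher and 0 lower of 24 and a median of 0.30 in the pair, and 1 higher and a median of 0.16 after adjustment, but the median was -0.064 against WT. Xaf1 rose (1.05) at 9.83 CPM with 9.96 CPM in WT. Heat shock genes and chaperones had 1 higher and 4 lower of 20 (0 and 3 after adjustment), none of them outside the control range, and genes of the unfolded protein and integrated stress response 1 higher and 3 lower of 25 (0 and 6 after adjustment). Slc7a11, the cystine transporter, was the one called member of both lists outside the range, at 39.4 CPM against 72.2, 60.7 and 61.5 CPM (-0.87). Genes of the oxidative stress response had 7 higher and 1 lower of 21, but 3 higher and 1 lower after adjustment, led by Txnip, an inhibitor of thioredoxin, at 39.1 CPM against 23.9, 21.4 and 22.5 CPM (0.71).

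Nearly no gene of the m6A machinery was called. Of 10 writers and erasers 0 were called by the read test (median -0.10), and of 12 other readers 1 was lower, Fmr1, at 70.5 CPM against 86.4, 79.1 and 93.5 CPM (-0.29). That is 8.33% of these readers, against 6.91% of all genes tested. Fmr1 was not called after adjustment (-0.085), when 1 reader was called higher and 0 lower. Fto, the eraser overexpressed in the third experiment, was at 164 CPM against 147, 152 and 158 CPM and was not called (0.15), although its adjusted ratio of 0.35 was. Splicing factors of the SR and hnRNP families had 0 of 33 called. Collagens had 2 higher and 4 lower of 43 (4.65% and 9.30%), beside 4.95% higher and 6.91% lower of all genes tested. Meningeal fibroblast genes had 3 higher and 1 lower of 19 (15.8% and 5.26%). Clustered protocadherins had 1 lower of 23 (4.35%), and blood cell genes 0 of 9 called. Below the range of the 3 controls, however, lay 7 of the 23 protocadherins and 4 of the 9 blood cell genes, against 11.3% over all genes. The blood cell median was 0.017 in the pair and -0.62 against WT. Replication-dependent histones, most of which lack a poly(A) tail, had 1 lower of 20 (Hist1h2be, -0.85) with a median of -0.49 at low counts.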

How the data were processed

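Whole-tissue hippocampal RNA was sequenced, and the deposited files hold 1 raw read count per Ensembl gene and library, used as deposited. Per the submitters' notes and the study's methods, the authors trimmed reads with Cutadapt and Trimmomatic, aligned them to mm10 with TopHat2 (2.0.9 in the notes, while the methods name another version) and counted them with HTSeq 0.6 (union mode, without strand), which drops reads shared by several genes. Symbols, biotypes, exon lengths and GC content came from GENCODE M21 (GRCm38), and 95.2% of gene IDs matched.

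Genotypes were taken from the labels, with 1 library a side. The MARS read test of the study was programmed in Python 3.11.15 with a pseudocount of 0.5 wherever both libraries together held 10 counts or more. The controls were also used as a range (margin 1.2-fold) and as the spread of quasi-likelihood F tests in edgeR 4.0.16 (R 4.3.3, TMM factors, filterByExpr), with Benjamini-Hochberg adjustment and DESeq2 1.42.0 as the alternative. The adjusted ratio takes off cubic splines of GC content and log2 exon length, fitted on genes with at least 100 counts. Scripts were tested on simulated data. SEs and intervals cover counting error, and nothing in the labels says how many animals a library holds. Named genes were the 12 largest protein-coding rises and falls and 3 of other biotypes each way, called in the pair, outside the control range and at 10 CPM or more in 1 library of the pair, and in each list the largest rise, the largest fall and the member with the highest CPM. The 48 hand-written lists, like the comparison itself, were chosen with earlier results of these data known. Some genes stand in more than 1 list, so the counts of different lists are not separate. Slc17a6 is in the vesicle and thalamus lists, and Pdgfra in the progenitor and meningeal lists. St18 is in the lineage factor list and the CA2 and CA3 list, and Dcn in the CA1 and meningeal lists. The 3 lists of the study were read from its supplement, 490, 490 and 489 IDs. A few genes that the rule picks are not reported here.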

Additional observations from a re-analysis of the deposited data

How the results depend on the processing

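The read test called 1188 genes once the ratio was adjusted for length and GC content and 3567 against the f/f control of the Nestin-Cre experiment, in place of 2104, while other scalings, count minimums and the WT library stayed within 1.5 times. With the dispersion of the 3 controls in an exact test of edgeR it called 23. The quasi-likelihood test called 0 genes, also with offsets from GC content and length, 26 without a filter on low counts (12 higher) and 2 to 12 with 1 control left out (2 without WT, 3 without the own f/f control, 12 without the other f/f library), and the Wald test of DESeq2 called 66. The genes outside the control range numbered 1430 with a 1.5-fold margin and 1934 with at least 100 counts, in place of 3732. Lists whose median departed from that of all genes by at least 1.2-fold numbered 7 in the pair (5 higher, 2 lower). None of these 7 was oligodendroglial. They numbered 5 after adjustment (1 higher, 4 lower) and 13 against WT. After adjustment the lower lists included structural myelin proteins (median -0.28) and other genes of mature oligodendrocytes (-0.35). Against WT the lower lists included structural myelin proteins (-0.40) and lineage transcription factors (-0.32). Prrc2a had a log2 ratio of -0.33 against the other f/f library and was then called lower. Olig2 was called lower in all 5 settings tried, and the genes called lower in the 6 oligodendroglial lists were 30 to 52 (settings chosen after seeing the data).

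The control library decided several signs, given here for values called in 1 of the comparisons or for list medians. Against the other f/f library the median of respiratory chain genes was -0.0014, and the log2 ratios of Hist1h2be (0.24), Id4 (0.41), Mt1 (-0.052), Nefl (0.31) and St18 (0.051) turned. Against WT the interferon median was -0.064, and Arc (0.11), Mt1 (-0.30), Omp (0.64), Xaf1 (-0.018) and Zbtb16 (0.29) turned. After adjustment Zeb2 (0.048) turned. Of 154 genes named and tested beside Prrc2a and Olig2, these included, 115 stayed called or stayed uncalled against the other f/f library, 122 against WT and 133 after adjustment, which ENSMUSG00000094114 lacks. Counting uncalled ratios as well, 10, 9 and 6 changed sign. The causes were not tested. No paired analysis was possible because the labels carry no replicate numbers and each group is 1 library.

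With 1 library a side, differences between animals, dissections or libraries cannot be told from the genotype. Counting error limits genes under a few CPM, in the shallowest library above all.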
